A study of Mus musculus with 4 samples.

Results

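The Rab GTPases were followed in bone marrow-derived dendritic cells (BMDCs, antigen-presenting cells grown in culture from mouse bone marrow) that lack GOLPH2 or carry the normal gene. Members were all genes whose symbol is Rab followed by a number, with at most 1 letter and 1 further digit after it, so that regulators and Rab-like genes with longer symbols were left out. This gave 57 genes of 15881 listed in either table and 55 of 14823 listed in both. Rab3c was listed for unstimulated cells only and Rab40b for stimulated cells only. The label holds for every member, since all 57 matched a protein-coding Rab gene in RefSeq; Rab7l1 is the older symbol of Rab29 and Rab1 that of Rab1a. The 4 groups, with 1 library each, were GOLPH2-/- (KO) cells primed with IFN-gamma (16 h) and then given LPS (4 h), WT cells after the same stimulation, KO cells without stimulation, and WT cells without stimulation. All came from C57BL/6 mice 8 weeks old. GOLPH2 is a Golgi membrane protein encoded by Golm1. The deposited data are 2 tables of KO over WT, 1 for each state, so levels per library and the response to stimulation were not analysed here, and no difference has a replicate check.

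Rab proteins are small GTPases that mark the membranes of the cell. In the GTP-bound form each one sits on its own compartment through lipid groups at its tail and recruits effectors that bud, carry, tether or fuse vesicles. Exchange factors load GTP, GTPase-activating proteins end the signal, and a dissociation inhibitor returns the inactive protein to the cytosol. In dendritic cells Rab proteins are known for steering phagosomes, antigen-carrying endosomes, Toll-like receptors and secretory lysosomes.

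Ratios below are log2 of KO over WT, shifted so that 0 is the ratio at which the authors' test found no difference. The error after ± is a counting standard error (SE) derived from the authors' p-value; it covers the sampling of reads and not the spread between cultures. Genes with a Benjamini-Hochberg adjusted p under 0.001, taken over their whole table, are termed called, and such a call compares 2 libraries, not 2 conditions. Precise members are those whose SE did not exceed the 0.289 that 50 reads per library would give. This held for 44 of 56 members in stimulated and 43 of 56 in unstimulated cells. They include Rab31 in stimulated cells and Rab11a and Rab24 in unstimulated cells. There the p-value was too near 1 for a reliable SE, and none is given. The targeted gene Golm1 was lower in KO cells, at 0.250 times the WT level in stimulated and 0.235 times in unstimulated cells. Of all genes, 5.36% were called higher and 6.54% lower in stimulated cells, and 4.7% higher and 4.27% lower in unstimulated cells. Of 9 dendritic cell markers, 8 were listed and Cd209a was not. Of these 8, 5 were called higher and 0 lower in stimulated cells, and 6 higher and 0 lower in unstimulated cells. Of 13 stromal markers, 7 were called higher and 1 lower in stimulated cells (range −0.74 to 6.27), and 5 higher and 0 lower in unstimulated cells (range −0.19 to 3.06). Their part in the Rab ratios was not tested. Macrophage and monocyte markers (9 of 10 listed) had 4 called higher and 2 lower in each state, lymphocyte markers (9 of 9) 1 higher and 0 lower in each, and neutrophil markers 0 higher, with 1 of 5 lower in stimulated and 2 of 7 lower in unstimulated cells. In such bulk samples, fewer cells of a type and less RNA per cell cannot be told apart.

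The 250 bases before the start are shown for Rab32 and Rab8b, which were called lower in both states, and for Rab11a, a higher call of stimulated cells whose stretch holds motif matches. Rab44, the member called higher in both states, is named without a sequence. The sequences are from RefSeq (GRCm38.p6, the build named mm10), minus strand, written 5′ to 3′. Capitals mark a match to 1 of 5 motifs searched on both strands, and no capitals mean no match.
Rab32, chr10:10558208-10558457: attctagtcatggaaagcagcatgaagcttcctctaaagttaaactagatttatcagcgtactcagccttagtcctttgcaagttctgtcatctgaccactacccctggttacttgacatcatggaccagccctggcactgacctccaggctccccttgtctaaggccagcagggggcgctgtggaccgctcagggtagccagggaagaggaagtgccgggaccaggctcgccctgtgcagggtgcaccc
Rab8b, chr9:66919706-66919955: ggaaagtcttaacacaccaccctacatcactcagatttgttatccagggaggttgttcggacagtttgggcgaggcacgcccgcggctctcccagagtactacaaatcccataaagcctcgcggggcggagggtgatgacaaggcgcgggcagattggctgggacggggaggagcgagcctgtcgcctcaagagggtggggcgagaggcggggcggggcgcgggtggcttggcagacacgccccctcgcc
Rab11a, chr9:64737757-64738006: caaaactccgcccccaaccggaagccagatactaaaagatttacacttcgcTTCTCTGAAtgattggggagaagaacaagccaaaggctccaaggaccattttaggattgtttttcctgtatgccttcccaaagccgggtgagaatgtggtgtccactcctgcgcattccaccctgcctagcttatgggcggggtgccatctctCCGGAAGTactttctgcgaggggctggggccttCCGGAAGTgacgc
The motifs were CACGTG (the E-box), a core of the interferon-stimulated response element (GAAA, any 2 bases, GAAA), TTCNNNGAA (the STAT site called GAS), TGANTCA (AP-1) and CCGGAAGT (ETS), none of them overlapping another in the stretches shown. In Rab11a, TTCTCTGAA began 199 bases before the start, and CCGGAAGT began 46 and 13 bases before it. RefSeq windows of 300 bases, with 50 of them after the start, were found for 47 members, 59 windows in all. The E-box letters were in 10.2% of these windows, against 7.15% of all 32851 windows. The letters of the interferon-stimulated element were in 1.69% against 3.44%, and the member that held them was Rab19. TTCNNNGAA was in 8.47% against 8.30%, TGANTCA in 5.08% against 7.81%, and CCGGAAGT in 3.39% against 3.89%. Besides Rab11a, the called members with a match in these windows were Rab15 (TTCNNNGAA and TGANTCA) and Rab5a (CACGTG), both called in unstimulated cells only. These are matches of letters, not binding sites.

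Most Rab genes kept nearly the WT ratio in the KO libraries, and few stood out. In stimulated cells Rab11a and Rab44 were called higher and Rab32 and Rab8b lower, 4 of 56 members (7.14%), where 11.9% of all genes were called. In unstimulated cells Rab44, Rab15, Rab1b and Rab5c were called higher and Rab32, Rab5a, Rab8b and Rab10 lower, 8 of 56 members (14.3%), where 8.96% of all genes were called. With the ratios as deposited, whose zero point lies 0.19 away in unstimulated cells, these 8 calls divide into 6 higher and 2 lower, where 6.56% of all genes were called higher and 2.4% lower. At an adjusted p under 0.05, 8 members were higher and 2 lower in stimulated cells, where 10.2% of all genes were higher and 11.7% lower, and 7 were higher and 7 lower in unstimulated cells, where 9.36% were higher and 8.5% lower. Of the precise members, 4 of 44 were called in stimulated cells, where 16.2% of precise genes were. In unstimulated cells 8 of 43 were called, where 12.2% of precise genes were. These calls keep the adjustment over the whole table. With only precise genes in the adjustment, 2 members were higher and 2 lower in stimulated cells, and 4 higher and 5 lower in unstimulated cells. The shares of genes under that adjustment are not available here. A call at 1.2-fold or more was made for Rab32 alone in stimulated cells, 0 members higher and 1 lower, where 4.6% of all genes had one (1.74% higher, 2.86% lower). In unstimulated cells Rab44 and Rab15 had one as higher and Rab32 as lower, where 3.29% of all genes had one (1.68% higher, 1.61% lower). The median member was at 0.04 in stimulated and 0.00 in unstimulated cells, and the median gene at 0.01 and 0.00 in the same order of states. Of the precise members, 38 of 44 (86.4%) lay within 1.2-fold of 0 in stimulated cells, as did 86.6% of all precise genes. In unstimulated cells these shares were 37 of 43 members (86.0%) and 88.8% of precise genes.

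**Figure D1:**
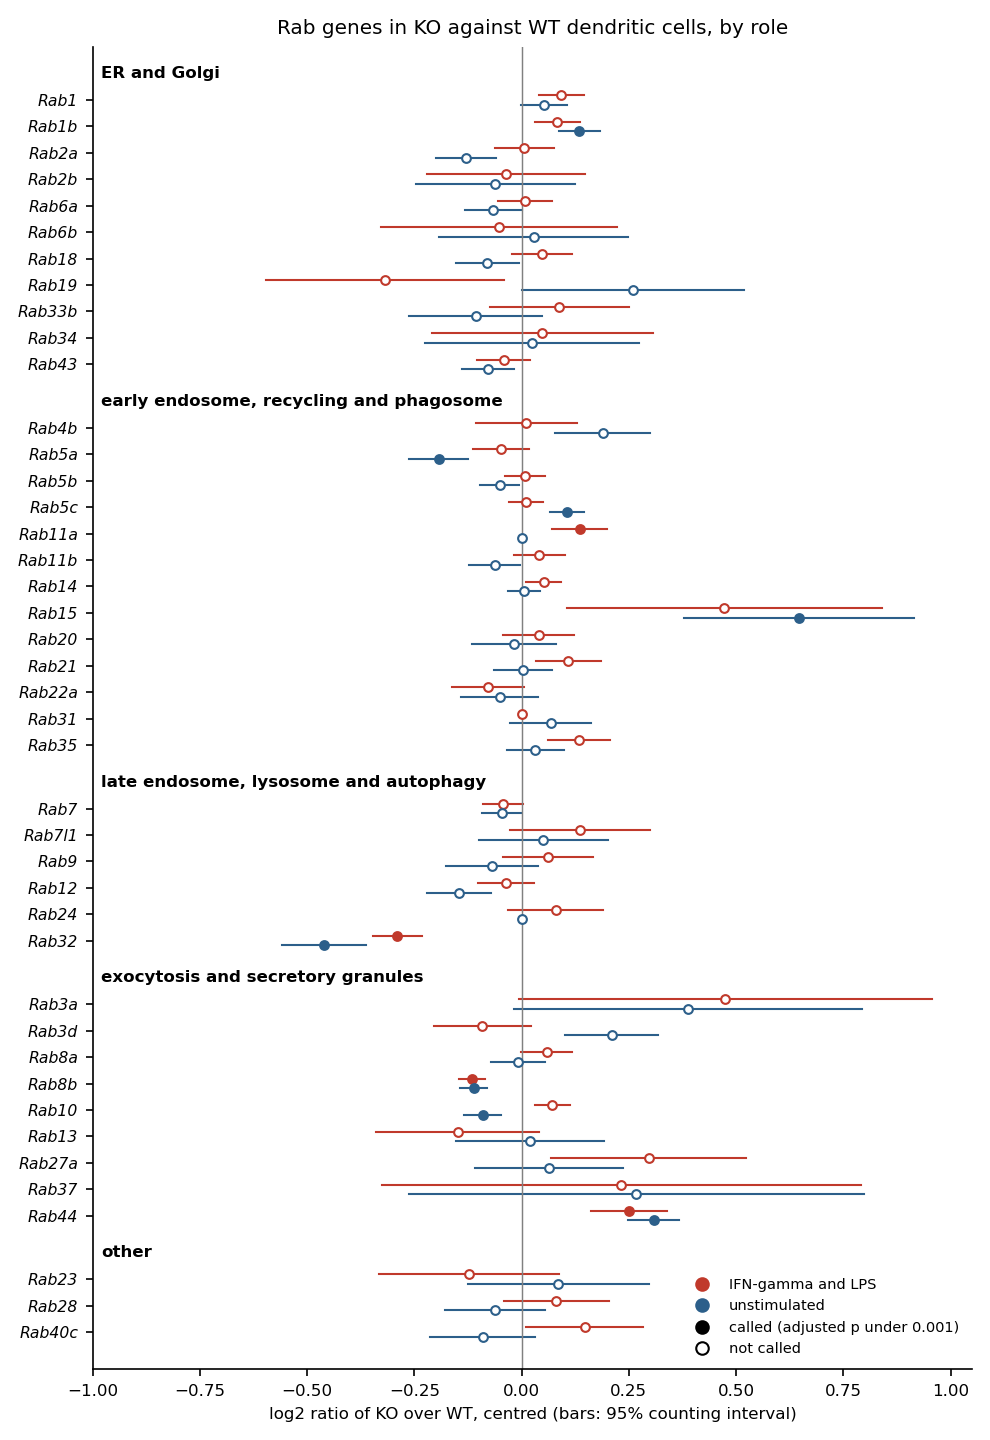
Each point is the centred log2 ratio of KO over WT (x axis) of 1 Rab gene (rows, grouped by role), red after IFN-gamma and LPS and blue without stimulation; bars are 95% counting intervals (left out where the deposited p was above 0.95), and filled points are called. The 42 genes precise in both states are shown; Rab32 and Rab8b are filled left of 0 in both states and Rab44 is filled right of 0 in both.

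Among Rab proteins of late endosomes and lysosomes, Rab32 had the largest ratio of a called member in stimulated cells. Rab32 serves lysosome-related organelles and restricts bacteria in vacuoles. The gene (chromosome 10, 10545039 to 10558207, GRCm38) was at −0.29 ± 0.03 in stimulated and −0.46 ± 0.05 in unstimulated cells, that is 0.818 and 0.727 times the WT level. The adjusted p was 2.02e-21 in stimulated and 2.37e-18 in unstimulated cells. Its relative Rab38, which acts with Rab32 in pigment granules, was at −0.19 ± 0.33 and −0.50 ± 0.42 in the same states and could not be told from 0 at this depth. The exchange factor of Rab32 and Rab38 is a complex of Hps1 and Hps4. Hps1 was at 0.09 ± 0.06 in stimulated and 0.06 ± 0.05 in unstimulated cells, and Hps4 at 0.12 ± 0.06 and 0.02 ± 0.06, none of them called.

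Rab7, which directs late endosomes and phagosomes to lysosomes, was among the most precisely measured members and was not called, at −0.04 ± 0.02 in stimulated and −0.05 ± 0.02 in unstimulated cells. Its exchange factor subunits were likewise not called, with Mon1a at 0.01 ± 0.08 and 0.17 ± 0.07, Mon1b at −0.09 ± 0.05 and −0.08 ± 0.05, and Ccz1 at −0.07 ± 0.04 and −0.003 ± 0.044. Rab12, which sends the transferrin receptor to lysosomes, was at −0.04 ± 0.03 in stimulated cells and lay just outside the threshold in unstimulated cells at −0.15 ± 0.04 (adjusted p 0.00133). Precise members of this role ranged from Rab32 to Rab7l1, a lysosomal and Golgi Rab that stood at 0.14 ± 0.08 in stimulated and 0.05 ± 0.08 in unstimulated cells. Most of the exon bases of Rab24 (62.4%) overlap Prelid1 on the opposite strand, and whether the authors' counting used strand is unknown here.

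Members of exocytosis and secretory granules included a gene called higher and a gene called lower in both states. Rab44 (chromosome 17, 29114128 to 29148980), a large Rab protein with calcium-binding domains known from mast cell granules, was at 0.25 ± 0.04 in stimulated and 0.31 ± 0.03 in unstimulated cells. These are 1.19 and 1.24 times the WT level, with adjusted p of 3.87e-07 and 2.49e-22. Rab8b (chromosome 9, 66843609 to 66919705), which carries vesicles to the plasma membrane, had the smallest counting error of all members in both states. It was at −0.12 ± 0.02 in stimulated and −0.11 ± 0.02 in unstimulated cells, 0.923 and 0.925 times the WT level; as deposited, the unstimulated ratio of Rab8b was above 0, at 0.080. Its close relative Rab8a was not called, at 0.06 ± 0.03 and −0.01 ± 0.03. Rab8a exceeded Rab8b by 0.17 ± 0.03 on the ratio scale in stimulated and by 0.10 ± 0.04 in unstimulated cells, a gap of more than 2 counting errors in each.

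Rab10, which brings Toll-like receptor 4 to the surface of macrophages, was not called in stimulated cells, at 0.07 ± 0.02. It was called lower in unstimulated cells at −0.09 ± 0.02 (adjusted p 0.00047), but not under a Bonferroni adjusted p of 0.05. As deposited, the unstimulated ratio of Rab10 was 0.10. Rab27a, which docks secretory lysosomes and recruits the oxidase to dendritic cell phagosomes, was not called, at 0.30 ± 0.12 in stimulated (adjusted p 0.0485) and 0.06 ± 0.09 in unstimulated cells. Rab27b was at 1.04 ± 0.99 in stimulated and −2.78 ± 1.30 in unstimulated cells, where the tables hold too few reads to fix a size. Rab3d, found on secretory granules, was at −0.09 ± 0.06 in stimulated cells and lay just outside the threshold in unstimulated cells at 0.21 ± 0.06 (adjusted p 0.00148). Rab3a, the synaptic vesicle Rab, was at 0.48 ± 0.25 and 0.39 ± 0.21, not called in either state.

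Early endosome, recycling and phagosome members had the largest called ratio of the family. Rab15 (chromosome 12, 76797960 to 76822759), a Rab of early and recycling endosomes studied mainly in neurons, was at 0.47 ± 0.19 in stimulated cells and was not called (adjusted p 0.0528). In unstimulated cells it was called higher at 0.65 ± 0.14, 1.57 times the WT level, with an adjusted p of 3.32e-05. Rab15 is the 1 member that the authors' deposited table of unstimulated cells marks as differentially expressed, at 0.84 as deposited; the authors' deposited table of stimulated cells marks 0 members. The counting error of Rab15 corresponds to 119 reads in each library in stimulated and 223 in unstimulated cells, far below the 17182 and 15746 of Rab8b. These read numbers are what equal counts in both libraries would have to be to give that error, not measured counts.

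In stimulated cells none of the 3 Rab5 genes, whose products fuse early endosomes, was called, with Rab5a at −0.05 ± 0.03, Rab5b at 0.01 ± 0.02 and Rab5c at 0.01 ± 0.02. In unstimulated cells they went apart. Rab5a (chromosome 17, 53479234 to 53507678) was called lower there, at −0.19 ± 0.04 (−0.0013 as deposited), and Rab5c (chromosome 11, 100715003 to 100738215) was called higher, at 0.11 ± 0.02. Rab5b lay between them at −0.05 ± 0.02 and was not called. Rab5a was 0.30 ± 0.04 below Rab5c on the ratio scale in unstimulated cells.

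Rab11a (chromosome 9, 64715300 to 64737756), which governs recycling endosomes, was called higher in stimulated cells at 0.14 ± 0.03, with an adjusted p of 0.000409. It was not called under a Bonferroni adjusted p of 0.05, where 1 member, Rab44, and 3.9% of all genes were higher. It was at 0.00 in unstimulated cells, where the deposited p was too near 1 to give an error. Rab11b was not called, at 0.04 ± 0.03 and −0.06 ± 0.03. Rab35, which returns cargo to the plasma membrane, lay just outside the threshold in stimulated cells at 0.13 ± 0.04 (adjusted p 0.0023) and was at 0.03 ± 0.03 in unstimulated cells. Rab4b, a Rab of fast recycling, was at 0.01 ± 0.06 and 0.19 ± 0.06, but 65.0% of its exon bases are shared with a read-through gene model on the same strand, so its value is uncertain. Rab4a was measured at an SE of 1.55 in stimulated and 1.18 in unstimulated cells and is not interpretable. Rab20, a phagosome Rab, was at 0.04 ± 0.04 and −0.02 ± 0.05, and Rab14, which acts between the Golgi and early endosomes, at 0.05 ± 0.02 and 0.01 ± 0.02.

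ER and Golgi members had 0 of 14 called in stimulated cells, where 11.9% of all genes were called, and 1 of 14 in unstimulated cells, where 8.96% were, counts near those shares. That gene was Rab1b (chromosome 19, 5099207 to 5106996), which moves cargo from the ER to the Golgi, at 0.08 ± 0.03 in stimulated cells (adjusted p 0.0129) and 0.13 ± 0.02 in unstimulated cells (adjusted p 1.09e-06). Its relative Rab1 was not called, at 0.09 ± 0.03 in stimulated and 0.05 ± 0.03 in unstimulated cells. Rab6a, the Rab of retrograde Golgi transport, was at 0.01 ± 0.03 and −0.07 ± 0.03. Rab2a, which acts between Golgi and ER, was at 0.01 ± 0.03 and −0.13 ± 0.04 (adjusted p 0.00297 in unstimulated cells). The median ratio of the 12 precise members of this role was 0.01 in stimulated and −0.06 in unstimulated cells. Exons of Rab43 (75.4% of bases, same strand) and of Rab2b (64.0%, opposite strand) are shared with other gene models, so their values are uncertain.

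The remaining members belong to no role above. Rab23, an inhibitor of Hedgehog signalling, Rab28 and Rab40c, whose product joins ubiquitin ligases, were not called in either state; their ratios reached from −0.12 to 0.15 in stimulated cells and from −0.09 to 0.09 in unstimulated cells. Across the family, the precise members that were not called (40 in stimulated and 35 in unstimulated cells) ranged from −0.66 (Rab26) to 0.48 (Rab3a) in stimulated cells and from −0.52 (Rab36) to 0.39 (Rab3a) in unstimulated cells. The 12 and 13 members of low precision were not called either, although some had the largest ratios of all, from −1.55 (Rab4a) to 1.84 (Rab25) in stimulated cells and from −2.78 (Rab27b) to 1.39 (Rab3b) in unstimulated cells. The smallest SE among them was 0.33 in stimulated and 0.38 in unstimulated cells.

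**Figure D2:**
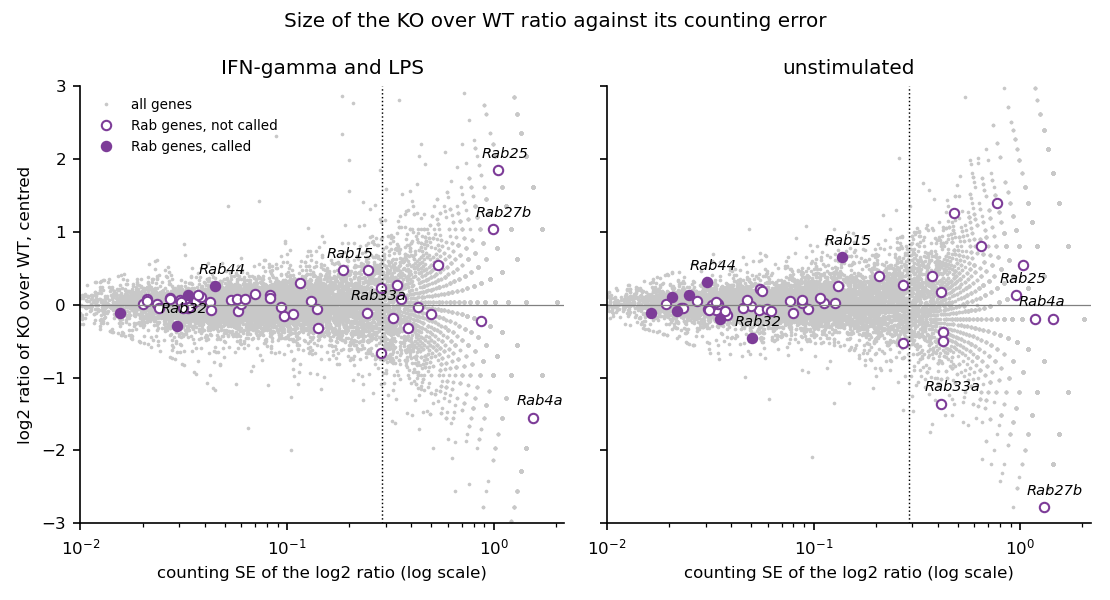
Centred log2 ratio of KO over WT (y axis) against its counting SE (x axis, log scale) after IFN-gamma and LPS (left) and without stimulation (right), for all genes (grey) and Rab genes (purple, filled where called). The dotted line is the SE of 50 reads in each library (0.289). Called Rab genes all lie left of it, and the widest ratios, such as Rab25 and Rab27b, lie right of it. Outside the axes lie 57 genes on the left and 60 on the right.

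The design also asks which differences between KO and WT recur, since each state has its own libraries. Rab44 was called higher in both states and Rab32 and Rab8b lower in both, and 0 members were called in opposite directions. Of all genes in both tables, 2.96% were called higher in both, 2.23% lower in both and 0.277% in opposite directions, against 1, 2 and 0 of 55 members. A limma fit of the mean ratio over both states, which takes the states as repeats and their difference as error, called 0 of 42 precise members at an adjusted p under 0.05, where it called 0.0182% of 10979 genes (0.00911% in each direction). At an unadjusted p under 0.05 it had 5 members (Rab15, Rab3a, Rab44 and Rab37 higher, Rab32 lower), 11.9% of them against 17.8% of genes (9.64% higher, 8.12% lower). Of these, Rab37 was called in neither state and could not be told from 0 by its counting error. It was at 0.23 ± 0.28 in stimulated and 0.27 ± 0.27 in unstimulated cells. In the limma fit the lowest adjusted p was that of Rab15, 0.0953, at a mean of 0.56 ± 0.07. For Rab32 the mean was −0.38 ± 0.07 (adjusted p 0.128), for Rab44 0.28 ± 0.05 (0.140) and for Rab8b −0.11 ± 0.05 (0.353). Errors in these limma means combine the difference between a gene's 2 ratios with a prior variance pooled over all fitted genes. They are thus not the gene's own spread between states, and they do not use the counting errors. For Rab8b, whose difference between states was −0.003, the limma error was 0.05. For Rab15, whose limma error was 0.07, the counting errors were 0.19 in stimulated and 0.14 in unstimulated cells. The number of calls depends on how limma sets the prior variance. Where the prior followed the counting SE, an alternative chosen after seeing the data, 2 members were called higher and 1 lower, against 4.19% and 3.77% of genes. They were Rab44 (0.28 ± 0.05, adjusted p 0.00488), Rab15 (0.56 ± 0.12, 0.0173) and Rab32 (−0.38 ± 0.06, 0.00177). With the ratios as deposited, Rab15 alone was called, as higher, against 1.29% of genes.

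Across the 42 precise members, 25 (59.5%) had the same sign in both states, against 66.9% of the precise genes. Pearson's r over the members was 0.58 and Spearman's rho 0.31, against 0.50 and 0.45 over all precise genes; the points share their libraries, and this is a description. Without Rab15, Rab32 and Rab44, r over the members was 0.26 and rho 0.15.

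**Figure D3:**
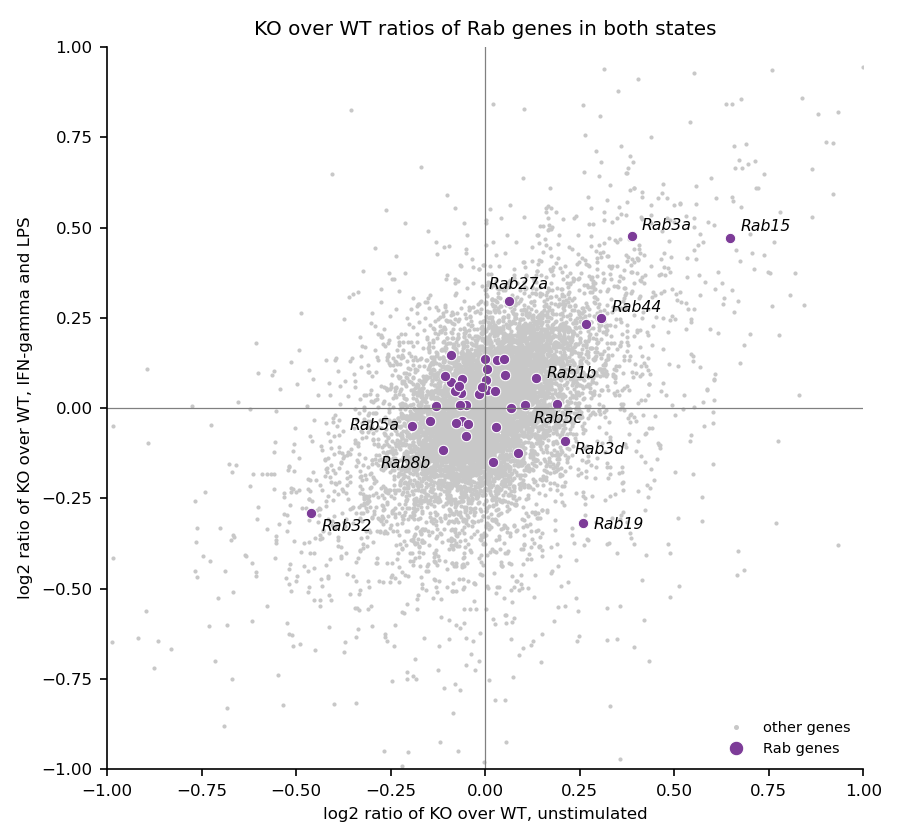
Centred log2 ratio of KO over WT without stimulation (x axis) and after IFN-gamma and LPS (y axis) for the 10979 genes precise in both states (grey) and the 42 Rab genes among them (purple). Rab15, Rab44 and Rab32 lie far from 0 along the diagonal, Rab19 lies at −0.32 stimulated and 0.26 unstimulated, and 33 genes fall outside the axes.

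The difference between the states, stimulated minus unstimulated, has no test and is given as values with counting errors. It exceeded 2 counting errors in 14 of the 39 precise members with an error in both states (35.9%), where 22.2% of such genes did so. The median SE was 0.043 for precise members against 0.063 for precise genes in stimulated cells, and 0.048 against 0.061 in unstimulated cells, and its part in this share was not tested. Of the 39 members, 10 had a ratio higher in stimulated cells by more than 2 counting errors and 4 a lower one. Of the 10402 genes with an error in both states, 10.9% were higher and 11.3% lower by that margin. This split depends on the centring: as deposited, 0 members were higher and 23 lower, where 0.413% of genes were higher and 62.3% lower. Rab10 had a difference of 0.16 ± 0.03, Rab5a 0.14 ± 0.05 and Rab32 0.17 ± 0.06, all below 0 as deposited. On the other side Rab5c was at −0.10 ± 0.03, Rab3d at −0.30 ± 0.08 and Rab19, a Golgi Rab, at −0.58 ± 0.19. For Rab44 the difference was −0.06 ± 0.05 and for Rab8b −0.003 ± 0.023. The median difference of the members was 0.06 and −0.17 with ratios as deposited.

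The proteins that load, switch off and read Rab proteins were examined as 4 lists. Of 40 exchange factors listed, 1 was called higher and 5 lower in stimulated cells, and 1 higher and 2 lower in unstimulated cells. Of 39 GTPase-activating proteins, 0 were higher and 1 lower in stimulated cells, and 2 higher and 1 lower in unstimulated cells. Of 43 effectors, 1 was higher and 5 lower in stimulated cells, and 5 higher and 1 lower in unstimulated cells. Of 10 chaperones and prenylation genes, 1 was higher and 0 lower in each state. In all, 3 were higher and 11 lower in stimulated cells, where 5.36% of all genes were called higher and 6.54% lower. In unstimulated cells 9 were higher and 4 lower, where 4.7% of all genes were called higher and 4.27% lower. List medians lay between −0.04 and 0.06 in both states.

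Calls at 1.2-fold or more, made for 4.6% of all genes in stimulated and 3.29% in unstimulated cells, were made for 3 of these genes in stimulated cells and 1 in unstimulated cells. In stimulated cells they were Lrrk2, a kinase that phosphorylates Rab proteins and was listed with the exchange factors (−0.37 ± 0.09), the Rab11 effector Rab11fip3 (−0.37 ± 0.08) and the Rab27 effector Sytl3 (−0.31 ± 0.07). Without stimulation the same genes were at −0.16 ± 0.09, 0.05 ± 0.08 and −0.37 ± 0.13, not called. Sgsm1, a GTPase-activating protein, was at 0.28 ± 0.14 in stimulated cells, not called, and was called higher at 0.43 ± 0.10 in unstimulated cells. The following 4 were singled out after their values were seen because they were called in both states. Rabac1, an acceptor that binds prenylated Rab proteins at the Golgi, was higher at 0.14 ± 0.03 in stimulated and 0.15 ± 0.02 in unstimulated cells. The exchange factor Dennd4a was lower at −0.25 ± 0.04 and −0.19 ± 0.04, Dennd5a at −0.22 ± 0.02 and −0.21 ± 0.02, and the Rab11 effector Rab11fip1 at −0.15 ± 0.03 and −0.24 ± 0.03. As deposited, the unstimulated ratio was 0.0041 for Dennd4a, above 0, −0.022 for Dennd5a and −0.044 for Rab11fip1.

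**Figure D4:**
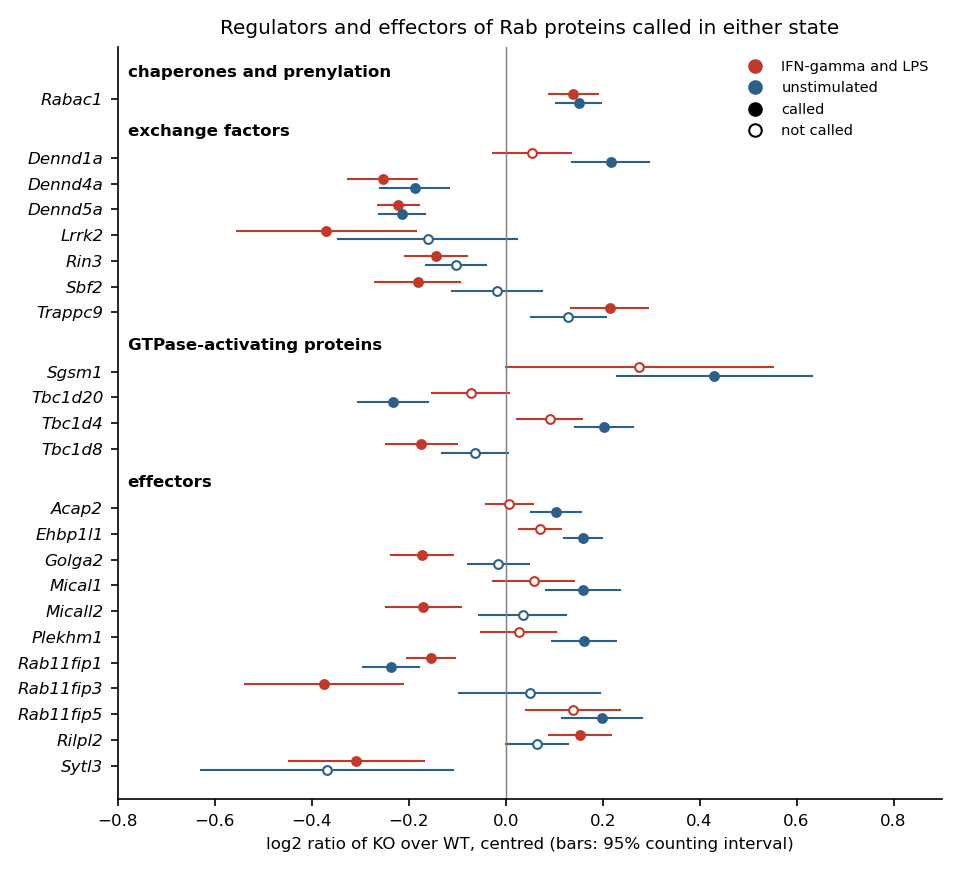
Centred log2 ratio of KO over WT (x axis) for every regulator or effector of Rab proteins called in at least 1 state, grouped by list, red after IFN-gamma and LPS and blue without stimulation; bars are 95% counting intervals and filled points are called. Rabac1 is filled right of 0 in both states, and Dennd4a, Dennd5a and Rab11fip1 are filled left of 0 in both.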

How the data were processed

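Strand-specific TruSeq mRNA libraries were made from total RNA, per the labels' protocols. FastQC 0.10.1, HTSeq 0.6.0 and mm10 are named per the submitters' processing notes; no aligner, annotation, strand setting, scaling or test is named there. The authors deposited, per the file headers, a log2 ratio of KO over WT and a log10 p-value for each gene and state; the values of the second are −log10 p as deposited. Depth per library is unknown.

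The zero point was the median deposited log2 ratio of genes with a deposited −log10 p under 0.005 (58 genes, at −0.036, in stimulated and 108 genes, at 0.19, in unstimulated cells) and was subtracted. The counting SE is the centred ratio over the normal deviate of the deposited p-value and is not given above a p of 0.95. Calls used Benjamini-Hochberg adjustment over each whole table at 0.001; the fit over both states used limma 3.58.1 with its default prior variance (R 4.3.3), with the rest in Python 3.11.15. Named members were Rab7, Rab27a, every called member and its same-numbered relatives; regulators were named at 1.2-fold or more. Other members, the subunits of the exchange factors of Rab7 and Rab32, and the regulators called in both states were named outside this rule, after their values were seen. Exon overlaps come from GENCODE M21. Protein sequences were not used here. The members and lists were chosen with earlier results of these data known. The steps were run on simulated data whose noise was the counting error alone and whose changes were the same in both states. That run cannot test how the steps handle spread between cultures.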

Additional observations from a re-analysis of the deposited data

How the results depend on the processing

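Which of the 4 and 8 Rab genes were called higher or lower did not depend on centring on the median gene. As deposited, without centring, 2 members and 2.4% of all genes were called lower in unstimulated cells. Rab8b (0.080) and Rab10 (0.10) were then above 0. The median unstimulated member was then at 0.19 and the median difference between states at −0.17. With the same ratios, the limma fit over both states called 1 member, Rab15, as higher, where 1.29% of genes were. As deposited, 0 members had a difference between states above 2 counting errors and 23 one below, against 0.413% and 62.3% of genes. The zero points of the states then enter each difference. With the limma prior following the counting SE, chosen after seeing the data, 2 members were called higher and 1 lower over both states. The shares of genes were 4.19% higher and 3.77% lower, and the cause was not tested. At an adjusted p under 0.05, 8 members were called higher and 2 lower in stimulated cells, and 7 higher and 7 lower in unstimulated cells. The regulators and effectors, 133 listed in either state, had 12 higher and 20 lower in stimulated cells. In unstimulated cells they had 16 higher and 16 lower. The shares of all genes were 10.2% higher and 11.7% lower in stimulated cells, and 9.36% higher and 8.5% lower in unstimulated cells. A Bonferroni adjusted p under 0.05 left 1 member called higher in stimulated cells, where 3.9% of all genes were. Under it Rab10 was no longer called in unstimulated cells. With only precise genes in the adjustment, 5 members instead of 4 were called lower in unstimulated cells. The share of genes under that adjustment is not available here. With 1.2-fold added to the call, 0 members were higher and 1 lower in stimulated cells, against 1.74% and 2.86% of all genes. In unstimulated cells 2 were higher and 1 lower, against 1.68% and 1.61%. Within a state no pairing by replicate was possible, because each group has 1 library and no replicate number could serve as a block. The limma fit pairs KO with WT within each state and takes the states as repeats. No replicate could be left out. Members with errors above 0.289 allow no statement about small changes.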
